A study of Mus musculus with 2 samples.

Results

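Rag1, Rag2, Dntt and Ptcra were examined as 4 of the 22032 genes counted by droplet single-cell RNA sequencing of embryonic mouse thymus, and were chosen by name for their roles in T-cell receptor gene assembly. The labels give 2 libraries, made with a 10x Chromium 3′ kit, of flow-sorted double-negative 1 (DN1) cells, E15.5_DN1 and E19.5_DN1, from the thymus of embryos of the strain named 5x polychromILC mice at the embryonic days in those names, with no further treatment and 1 library per stage. Both groups share that strain, which carries reporters at loci used to tell T cells from innate lymphoid cells (ILCs), so no reporter-free animals are in the comparison. How many embryos were pooled is not given in the sources used here, and the extraction label speaks of lysed cells and nuclei, which leaves the loaded material unsettled. The barcodes carry suffix 1 or 2, which no label ties to a stage. Suffixes are therefore described, and stages are not compared.

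After filters 5412 barcodes were kept, 3275 of suffix 2 and 2137 of suffix 1, with a median of 14078 unique molecular identifiers (UMIs, counted transcripts) and a range of 713 to 113167. A set of 25 barcode sequences occurred under both suffixes. Groups of barcodes were made by requiring at least 2 UMIs of each gate gene, namely Spi1 and Bcl11a for a progenitor gate (895 barcodes), Cd3g and Myb for a DN2/DN3 gate (513), Cd8b1 for an alpha-beta gate (88, all of suffix 2), Cd3d and Sox13 for a gamma-delta T gate (131), and Icos and Rora for an ILC2 gate (1062). An NK/ILC1 gate on Ncr1 and Nkg7 (612 barcodes) served as a background population. DN2 and DN3 are the stages at which thymocytes commit to the T lineage and begin to rearrange receptor genes. There is 1 library per stage and no replicate, so no test between groups was run, and every interval given is a 95% interval that covers counting error only. Levels are given as CPM, the usual scaling of counts to a common total per group. UMIs are read at the 3′ end of transcripts, and levels are compared within a gene and not between genes.

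The gates were checked against markers that they did not use. Progenitor barcodes held Kit at 81.5 CPM and Lyl1 at 128 CPM, genes of early thymic progenitors. The alpha-beta barcodes held Cd8a in 94.3% and Cd4 in 54.5% of them, although the labels call every cell DN1, a sort that should lack both coreceptors. In the gamma-delta T gate Blk stood at 203 CPM, and in the ILC2 gate Il1rl1, the interleukin 33 receptor, stood at 179 CPM. By suffix Il1rl1 was 246 CPM in suffix 2 and 23.5 CPM in suffix 1 of the ILC2 gate. In suffix 1 the NK/ILC1 marker Klrd1 stood at 181 CPM, against 14.6 CPM in suffix 2, so the ILC2 label held less well there. Of the other ILC2 markers Il13 was higher in suffix 1, with 167 CPM against 119 CPM in suffix 2. Gata3 was lower in suffix 1, with 116 against 203 CPM, as were Il7r with 197 against 679 CPM and Areg with 2.23 against 6.25 CPM. Il5 had 1 UMI in suffix 1 and 13 in suffix 2. The label DN2/DN3 held less well too. Gzma, a granzyme gene of cytotoxic cells, was found in 87.1% of DN2/DN3 barcodes and stood at 1568 CPM, and 81 of the 513 also passed the gamma-delta T gate and 41 the alpha-beta gate. The progenitor and DN2/DN3 gates shared 105 barcodes. For that reason values are given for groups that do not overlap, in the order progenitor only (788 barcodes), progenitor and DN2/DN3 together (98), DN2/DN3 only (251) and alpha-beta (88). The order is that of the gates and was not measured as a lineage. Median depth was 32365, 44176, 29908 and 5212.5 UMIs in those groups, so alpha-beta barcodes were the shallowest.

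Rag1 and Rag2 encode the subunits of the V(D)J recombinase, which cuts antigen receptor genes at their recombination signals and is active only as a complex of both. Dntt encodes terminal deoxynucleotidyl transferase, which adds untemplated nucleotides at the cut ends before they are joined, and is known to be scarce in the fetal thymus and common after birth. Ptcra encodes the invariant pre-T-cell receptor alpha chain, which pairs with a newly made beta chain and lets the thymocyte pass its first checkpoint. Cut ends are sealed by the proteins of non-homologous end joining.

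Rag1 and Rag2 are neighbours on mouse chromosome 2 that are transcribed towards each other. In GRCm38, Rag1 lies at chr2:101638282-101649501 on the minus strand and Rag2 at chr2:101624718-101632529 on the plus strand, with 5752 bases between them. Dntt lies at chr19:41029275-41059525 on the plus strand and Ptcra at chr17:46755663-46763712 on the minus strand. Each gene had its highest level in alpha-beta barcodes, although the genes were placed differently in the other groups. The stretch of 150 bases before each start site is shown with 2 short motifs in capitals. These are CANNTG, the E-box bound by E proteins, and TGTGGT, a core bound by Runx factors. Both strands were searched. The RefSeq sequences (GRCm38.p6), each on its own strand, were taken from chr2:101649533-101649682 for Rag1, chr2:101624562-101624711 for Rag2, chr19:41029125-41029274 for Dntt and chr17:46763713-46763862 for Ptcra.
Rag1: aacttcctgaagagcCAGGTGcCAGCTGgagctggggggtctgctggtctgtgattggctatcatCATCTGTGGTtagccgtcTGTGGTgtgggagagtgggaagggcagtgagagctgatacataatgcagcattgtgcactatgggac
Rag2: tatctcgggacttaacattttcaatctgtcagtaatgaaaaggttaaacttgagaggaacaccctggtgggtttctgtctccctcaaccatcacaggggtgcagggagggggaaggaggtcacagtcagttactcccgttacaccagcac
Dntt: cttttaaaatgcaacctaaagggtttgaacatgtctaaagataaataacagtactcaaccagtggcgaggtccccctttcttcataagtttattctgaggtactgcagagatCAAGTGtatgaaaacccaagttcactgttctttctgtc
Ptcra: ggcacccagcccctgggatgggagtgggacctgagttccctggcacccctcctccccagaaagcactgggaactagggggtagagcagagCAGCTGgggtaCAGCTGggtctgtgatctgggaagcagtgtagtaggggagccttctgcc
Rag1 held 3 E-boxes and 2 Runx cores, Ptcra 2 E-boxes, Dntt 1 and Rag2 none of either. In Rag1 one E-box and one Runx core overlap. Of 32851 mouse promoters cut to the same window, 47.7% held an E-box and 8.40% a Runx core, so an E-box alone is common. A match is a description of letters and no evidence of binding. The gene B230118H07Rik runs on the strand of Rag1 and reaches over it, so its reads and those of Rag1 may not be fully separable. Its start is at chr2:101649532, directly beside the stretch printed for Rag1, while the Rag1 position given above ends at 101649501. The motifs in that stretch can thus not be credited to Rag1 alone. B230118H07Rik had 73.9 CPM in the alpha-beta group, 12.1 in DN2/DN3 only, 13.2 in progenitor and DN2/DN3, and 13.3 in progenitor only. In ILC2 barcodes, where Rag1 had 0 UMIs, it had 12.01 CPM.

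All 4 genes were scarce in the sort as a whole. Of the kept barcodes, 4705 (86.9%) held no UMI of any of them, 513 held 1 of the genes, 121 held 2, 62 held 3 and 11 held all 4. Rag2 had 804 UMIs in 496 barcodes (9.16%). Rag1 had 691 UMIs in 239 barcodes (4.42%), Ptcra 460 UMIs in 193 (3.57%) and Dntt 133 UMIs in 57 (1.05%). The genes were placed differently. The alpha-beta group held 50.1% of all Rag1 UMIs and 88.0% of all Dntt UMIs but 6.59% of the Rag2 UMIs, while the progenitor only group held 32.6% of the Rag2 UMIs. The DN2/DN3 only group held 37.6% of the Ptcra UMIs. The 5 richest barcodes held 23.3% of the Dntt UMIs, 16.7% of Ptcra, 8.68% of Rag1 and 4.35% of Rag2.

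Rag1 was lowest in progenitors and higher at each later gate. It stood at 1.39 CPM in progenitor only barcodes (0.978 to 1.92, 37 UMIs in 35 barcodes), 11.6 CPM in progenitor and DN2/DN3 barcodes (8.67 to 15.3), 24.0 CPM in DN2/DN3 only barcodes (20.7 to 27.6) and 399 CPM in alpha-beta barcodes (358 to 444). No 2 of these intervals overlap. Within suffix 2 the values were 1.26, 9.91, 19.1 and 399 CPM, and within suffix 1, which has no alpha-beta barcode, 1.70, 12.9 and 26.4 CPM. Of the 88 alpha-beta barcodes 73 (83.0%) held a Rag1 UMI and 37 held at least 5. Of the 251 DN2/DN3 only barcodes 76 (30.3%) held one and 11 held at least 5.

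Rag2 was already present in progenitors and spanned a smaller range. It stood at 9.84 CPM in progenitor only (8.68 to 11.1), 27.8 CPM in progenitor and DN2/DN3 (23.1 to 33.3), 26.4 CPM in DN2/DN3 only (22.9 to 30.1) and 61.2 CPM in alpha-beta barcodes (45.8 to 80.0). The middle groups overlap, and the first and last lie apart from them. Rag2 was found in 196 of 788 progenitor only barcodes (24.9%), and Rag1 in 35 of the same barcodes (4.44%). These shares are not ranked, as the genes may be captured with different efficiency. Within suffix 2 the values were 10.7, 24.8, 18.8 and 61.2 CPM, and within suffix 1 they were 7.72, 30.0 and 30.1 CPM.

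Dntt was close to absent before the alpha-beta gate. There were 2 UMIs in progenitor only barcodes (0.0751 CPM), 0 in progenitor and DN2/DN3, 8 UMIs in 3 DN2/DN3 only barcodes (0.990 CPM) and 117 UMIs in 48 alpha-beta barcodes (135 CPM, 112 to 162). All 133 Dntt UMIs were of suffix 2. Suffix 1 had 0, with 2137 kept barcodes. Ptcra stood at 0.864 CPM in progenitor only, 6.39 CPM in progenitor and DN2/DN3, 21.4 CPM in DN2/DN3 only (18.3 to 24.8, 50 barcodes) and 122 CPM in alpha-beta barcodes (100 to 148, 35 barcodes). It thus followed the order of Rag1. Within suffix 2 its values were 0.896, 6.06, 6.38 and 122 CPM, and within suffix 1 they were 0.785, 6.63 and 28.8 CPM, so the step at DN2/DN3 only was seen in suffix 1 and not in suffix 2 at this gate minimum. With 1 UMI per gate gene the suffixes already differed in progenitor and DN2/DN3 barcodes, with 8 Ptcra UMIs in suffix 2 and 60 in suffix 1, a log2 ratio of -3.04, against -0.13 with 2 UMIs per gate gene.

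**Figure D1:**
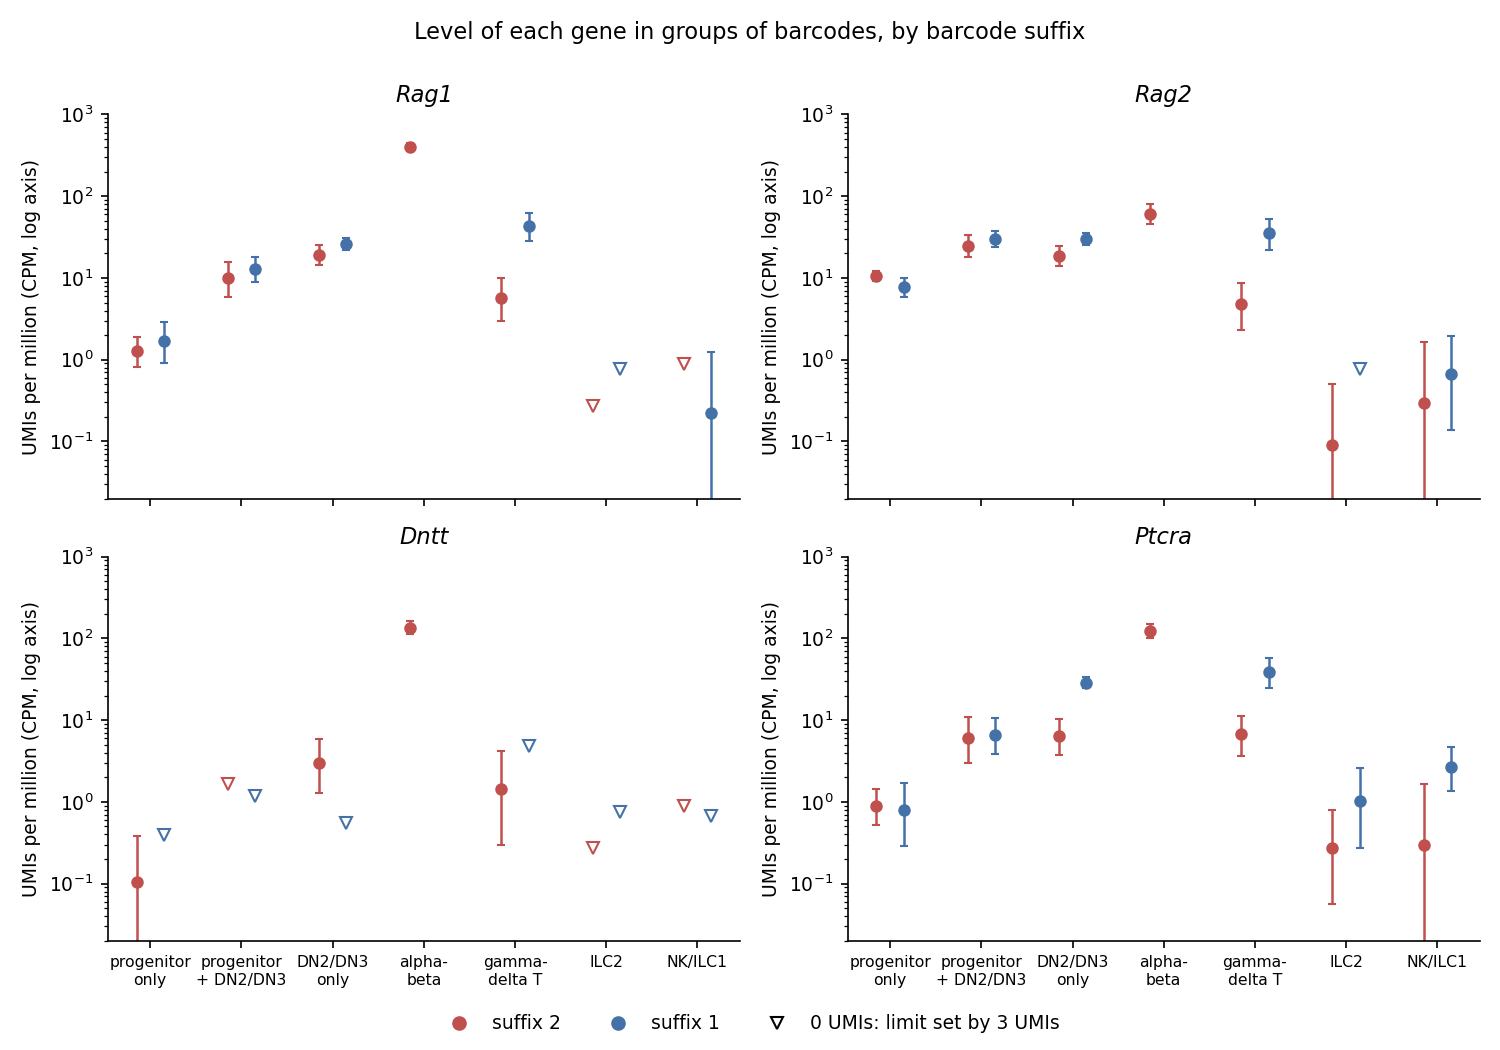
Level of Rag1, Rag2, Dntt and Ptcra (CPM, log axis) in 7 groups of barcodes that do not overlap, with suffix 2 in red and suffix 1 in blue; bars are exact 95% Poisson intervals and open triangles mark groups with 0 UMIs at the level that 3 UMIs would give. Rag1 spans 1.39 to 399 CPM from progenitor only to alpha-beta barcodes, Rag2 9.84 to 61.2 CPM, and Dntt is seen almost wholly in the alpha-beta group.

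Since shallow barcodes lose UMIs, each barcode was also thinned to 2500 UMIs. At that depth Rag1 was found in 3 of 788 progenitor only barcodes (0.381%), 12 of 251 DN2/DN3 only barcodes (4.78%) and 50 of 78 alpha-beta barcodes (64.1%). Rag2 was found in 19 (2.41%), 16 (6.37%) and 12 (15.4%) of them. Dntt was found in 0, 0 and 29 (37.2%), and Ptcra in 2, 12 (4.78%) and 14 (17.9%). For Rag1 and Ptcra the share was lowest in progenitor only and highest in alpha-beta barcodes with and without thinning. For Rag2 the rank differed, since without thinning it was in 196 progenitor only (24.9%), 99 DN2/DN3 only (39.4%) and 32 alpha-beta barcodes (36.4%).

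The balance of the recombinase transcripts differed between groups. There were 7.08 Rag2 UMIs per Rag1 UMI in progenitor only barcodes (5.01 to 10.3), 2.39 in progenitor and DN2/DN3 (1.71 to 3.39), 1.10 in DN2/DN3 only (0.900 to 1.34) and 0.153 in alpha-beta barcodes (0.112 to 0.205). No 2 of these intervals overlap. Within suffix 2 the ratios were 8.46, 2.50, 0.98 and 0.153, and within suffix 1 they were 4.54, 2.33 and 1.14, so the point values kept the order in both. Some intervals overlap within a suffix. In suffix 1 these were progenitor only (2.46 to 9.02) and progenitor and DN2/DN3 (1.53 to 3.62). In suffix 2 they were progenitor and DN2/DN3 (1.42 to 4.59) and DN2/DN3 only (0.650 to 1.48). Because the ratio is taken within a group, the group's depth and total cancel. The ratio of UMIs in one group has no meaning as a ratio of molecules, as the genes may be captured with different efficiency, and only its difference between groups is read. Gamma-delta T barcodes had 0.821 (0.498 to 1.34), an interval that overlaps that of DN2/DN3 only. The measure was chosen after its values were seen. Under other gate minimums, without the barcode filter, with stricter filters and with doublets kept, the ratio in progenitor only, DN2/DN3 only and alpha-beta barcodes stayed inside the interval given here.

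**Figure D2:**
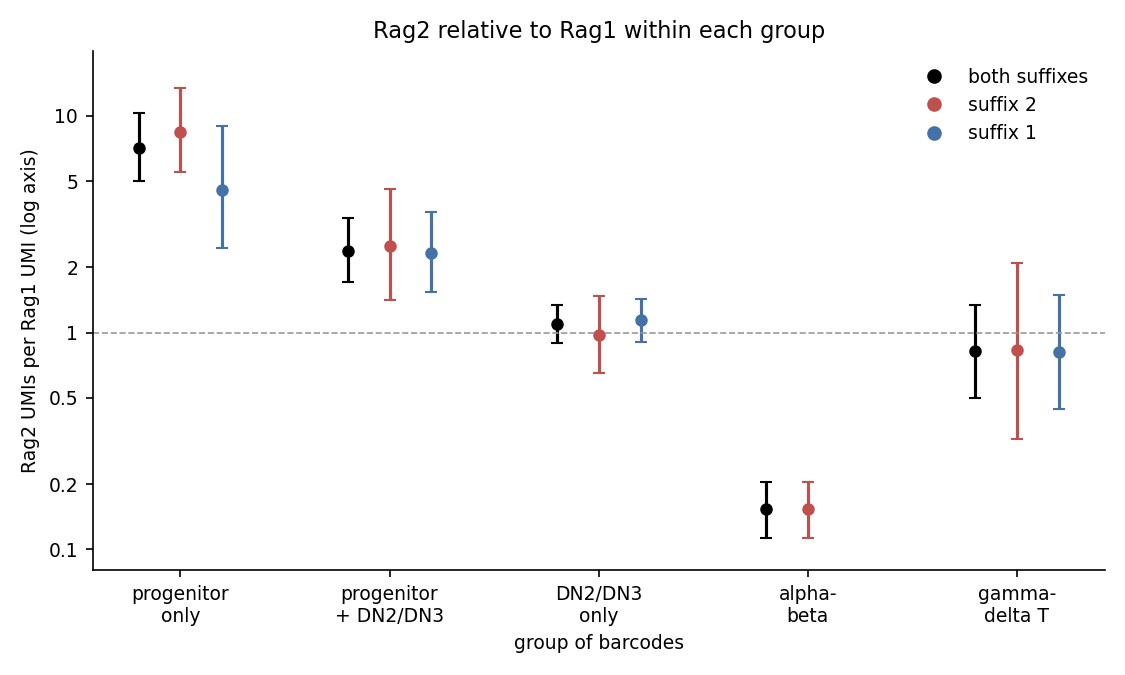
Rag2 UMIs per Rag1 UMI (log axis) in 5 groups of barcodes that do not overlap, for both suffixes (black), suffix 2 (red) and suffix 1 (blue), with 95% intervals; the dashed line is at equal counts. The ratio is 7.08 in progenitor only barcodes, close to equal in DN2/DN3 only barcodes and 0.153 in alpha-beta barcodes.

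DN2/DN3 and progenitor barcodes were compared to describe the onset of the recombination genes, with barcodes of both gates left out. Rag1 had 34.7 CPM in 408 DN2/DN3 barcodes, against 1.39 CPM in 790 progenitor barcodes, and the log2 ratio was 4.65 (4.16 to 5.17). Rag2 had 24.3 CPM in DN2/DN3, against 9.81 CPM in progenitor barcodes, a log2 ratio of 1.31 (1.06 to 1.56). Dntt had 62 UMIs in DN2/DN3 and 2 in progenitor barcodes, a log2 ratio of 6.18. Ptcra had 24.1 CPM in DN2/DN3, against 0.861 CPM in progenitor barcodes, a log2 ratio of 4.81 (4.19 to 5.49). All 4 genes were at least 2-fold higher, while of all 11427 genes with enough UMIs 6.3% were that much higher and 6.62% that much lower. Part of the Rag1 UMIs and most of the Dntt UMIs came from barcodes with Cd8b1. Of those in DN2/DN3 barcodes, 168 of 395 for Rag1 and 51 of 62 for Dntt lay in the alpha-beta gate. The 11 Dntt UMIs outside it, beside 2 in progenitor barcodes, fall short of the 20 UMIs required of a tested gene. The 2-fold call for Dntt thus rests on alpha-beta barcodes. With every barcode holding a Cd8b1 UMI left out, the log2 ratio was 3.97 for Rag1 and 3.63 for Dntt. For Rag2 the 2-fold call was lost with 1 UMI per gate gene (0.69), with barcodes thinned first (0.94) and in suffix 2 alone (0.92). Markers of other cells were higher in the same DN2/DN3 barcodes, with 8 of 9 tested NK/ILC1 markers, 7 of 7 gamma-delta T markers and 6 of 6 ILC2 markers at least 2-fold higher. NK/ILC1 markers summed to 2084 CPM in the DN2/DN3 gate and 465 CPM in the progenitor gate. Most of the DN2/DN3 sum was Gzma. In the 472 DN2/DN3 barcodes outside the alpha-beta gate Gzma had 1589 CPM, Nkg7 327 CPM and Ccl5 122 CPM. Every other marker of that list had at most 49.9 CPM there, with Ncr1 at 4.32 and Eomes at 0.451 CPM. The sum is thus no measure of how many barcodes were NK/ILC1 cells. Of the full gates, 13 DN2/DN3 and 3 progenitor barcodes also passed the NK/ILC1 gate. With the NK/ILC1 gate left out of both groups the log2 ratios were 4.67 for Rag1, 1.34 for Rag2, 6.22 for Dntt and 4.84 for Ptcra. So few barcodes were removed that the ratios could hardly change, and most barcodes with NK/ILC1 transcripts stayed in. With barcodes of at least 2 Nkg7 UMIs left out only 44 progenitor barcodes remained, with 1 Rag1 UMI and 4 Rag2 UMIs. The part of the gamma-delta T and ILC2 markers was not tested.

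Alpha-beta and DN2/DN3 barcodes were compared for the next step, again without overlap. Rag1 had 399 CPM in 88 alpha-beta barcodes, against 17.9 CPM in 472 DN2/DN3 barcodes, a log2 ratio of 4.48 (4.25 to 4.71). Rag2 had 61.2 against 23.7 CPM, a log2 ratio of 1.37, and its interval (0.92 to 1.79) lies below that of Rag1. Dntt had 135 CPM in alpha-beta, against 0.709 CPM in DN2/DN3 barcodes, a log2 ratio of 7.57. Ptcra had 122 against 14.7 CPM, a log2 ratio of 3.06. All alpha-beta barcodes were of suffix 2, and against the 192 DN2/DN3 barcodes of suffix 2 alone the log2 ratios were 4.89 for Rag1, 1.82 for Rag2, 6.23 for Dntt and 4.19 for Ptcra. All 4 were at least 2-fold higher, against 9.59% of 10558 genes higher and 11% lower. Cytotoxic transcripts were in both gates, and the summed NK/ILC1 markers stood at 1322 CPM in alpha-beta and 2121 CPM in DN2/DN3 barcodes. Most of each sum was Gzma, with 937 against 1589 CPM. Of the NK/ILC1 markers 3 of 8 tested were at least 2-fold higher, 2 lower and Eomes was at 0. Of the tested markers of other cells, 2 of 7 for gamma-delta T were higher and 3 lower, 3 of 5 for mast cells or basophils lower, 6 of 7 for early T progenitors lower, 1 of 2 for erythroid cells lower, 2 of 5 for thymic epithelium lower and 3 of 7 for plasmacytoid dendritic cells higher. For ILC2 markers 1 of 6 was higher and 1 lower, and for B lineage markers 1 of 2 was higher. The part of these cells in the values was not tested.

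The alpha-beta barcodes were not uniform. The 47 that did not pass the DN2/DN3 gate had a median of 3815 UMIs, against 9839 UMIs in the 41 that did. Rag1 had 606 CPM in the 47 barcodes (520 to 702), against 293 CPM in the 41 barcodes (251 to 341). Dntt had 225 CPM in the 47 (174 to 286), against 89.1 CPM in the 41 (66.3 to 117). Ptcra had 106 CPM in the 47 (71.7 to 149.8) against 131 CPM in the 41 (103 to 164), and the intervals overlap. Rag2, with 68.1 against 57.6 CPM, overlaps too. Ptcra and Dntt were found in barcodes of different depth. The 35 barcodes with Ptcra had a median of 12949 UMIs, against 3647 UMIs without, while the 48 with Dntt had a median of 3843.5 UMIs, against 8136 without. Ptcra was found in 17 of the 48 barcodes with Dntt, against 18 of the 40 without. Depth and the DN2/DN3 gate move together here and cannot be told apart.

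Gamma-delta T barcodes had lower values than DN2/DN3 barcodes in the sum of both suffixes, but not in every setting. Rag1 had 14.2 CPM in 131 gamma-delta T barcodes, against 29.3 CPM in 432 DN2/DN3 barcodes, a log2 ratio of -1.05. Rag2 had 11.6 against 26.2 CPM (-1.17), Dntt 1.09 against 4.16 CPM (-1.93) and Ptcra 13.8 against 20.03 CPM (-0.54). Of the 4 genes 3 were at least 2-fold lower and 0 higher, against 6.5% of genes lower and 6.99% higher. The UMIs came from few barcodes. All 39 Rag1 UMIs were in 7 of the 131 barcodes, and in suffix 2 all 12 were in 1 barcode of 114. Suffix 1 had 17 barcodes with 43.2 CPM of Rag1, above the DN2/DN3 barcodes of suffix 1, and 1 of them held 9 of its 27 Rag1 UMIs and 18 of its 24 Ptcra UMIs. The direction was therefore opposite within suffix 1 for Rag1 (1.10), Rag2 (0.36) and Ptcra (0.90), and no direction is given for these 3 genes. For Dntt, 51 of the 62 UMIs of the DN2/DN3 gate lay in barcodes that also passed the alpha-beta gate. In the groups that do not overlap Dntt had 1.10 CPM in gamma-delta T and 0.990 CPM in DN2/DN3 only barcodes, on 3 and 8 UMIs, so no direction is given for it either.

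ILC2 and NK/ILC1 barcodes gave the background. In 999 barcodes that passed the ILC2 gate alone, with a median of 13491 UMIs, Rag1 and Dntt had 0 UMIs, which allows up to 0.2002 CPM. Rag2 had 1 UMI and Ptcra 7 (0.467 CPM, 5 barcodes). In 577 NK/ILC1 barcodes, with a median of 12372 UMIs, Rag1 had 1 UMI, Rag2 4, Dntt 0 and Ptcra 13 (1.65 CPM, 12 barcodes). The Rag2 level in progenitor only barcodes, 9.84 CPM, was thus above both. The Rag1 level there, 1.39 CPM, was above them too. The Ptcra level there, 0.864 CPM (0.548 to 1.30), lay between those of ILC2 and NK/ILC1 barcodes. In suffix 2 it was 0.896 CPM on 17 UMIs (0.522 to 1.43), against 0.298 CPM in NK/ILC1 and 0.272 CPM in ILC2 barcodes, and in suffix 1 it was 0.785 CPM, against 2.66 CPM in NK/ILC1 and 1.01 CPM in ILC2 barcodes. Ptcra in progenitor only barcodes could thus not be told from background in both suffixes. The 2 Dntt UMIs are under the limit that a count of 0 allows. Over both gates, leaving out the barcodes they share, ILC2 against progenitor barcodes gave 0.428 against 2.81 CPM for Rag1 (log2 ratio -2.72), 0.244 against 12.3 CPM for Rag2 (-5.65) and 1.34 against 1.63 CPM for Ptcra (-0.28), while Dntt had 0 and 2 UMIs. Rag1 and Rag2 were at least 2-fold lower, against 16.2% of 11755 genes lower and 13.6% higher. With Nkg7 barcodes left out, 46 progenitor barcodes and 1 Rag1 UMI remained, and the log2 ratio for Rag1 was -0.09 (-3.06 to 5.40). All 7 Rag1 UMIs of the ILC2 gate lay in the 37 barcodes that also passed the DN2/DN3 gate.

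Co-detection was read in barcodes thinned to 20000 UMIs, since deep barcodes show more of every gene. Among 337 DN2/DN3 barcodes outside the alpha-beta gate, Rag2 was found in 44 of 71 with Rag1 (62.0%, 49.7 to 73.2%), against 67 of 266 without (25.2%). Ptcra was found in 22 of 71 with Rag1 (31.0%, 20.5 to 43.1%), against 17 of 266 without (6.39%). Ptcra was found in 21 of 111 with Rag2 (18.9%, 12.1 to 27.5%), against 18 of 226 without (7.96%), but in suffix 2 it was 2 of 30 against 5 of 94. The share of Rag2 with Rag1 was 8 of 19 against 22 of 105 in suffix 2 and 36 of 52 against 45 of 161 in suffix 1, the same direction in each. That of Ptcra with Rag1 was 5 of 19 against 2 of 105 in suffix 2 and 17 of 52 against 15 of 161 in suffix 1. Without thinning the share of Rag2 with Rag1 was 86 of 111 (77.5%) against 83 of 361 (23.0%), at medians of 45263 and 25593 UMIs.

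In progenitor only barcodes the pair did not go together in this way. At 20000 UMIs Rag2 was found in 1 of 18 barcodes with Rag1 (5.56%, 0.141 to 27.3%), against 121 of 680 without (17.8%). Without thinning it was 7 of 35 against 189 of 753 (25.1%). The intervals overlap, and 18 barcodes are too few to show a difference in either direction. The alpha-beta gate was read without thinning, since most of its barcodes hold fewer than 20000 UMIs. There all 32 barcodes with Rag2 also held Rag1, against 41 of 56 without Rag2. Dntt was in 43 of 73 with Rag1 (58.9%), against 5 of 15 without (33.3%). Depth was not held equal in these shares, so it cannot be told apart from co-detection. Of the 11 barcodes with all 4 genes, 10 were in the alpha-beta gate.

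**Figure D3:**
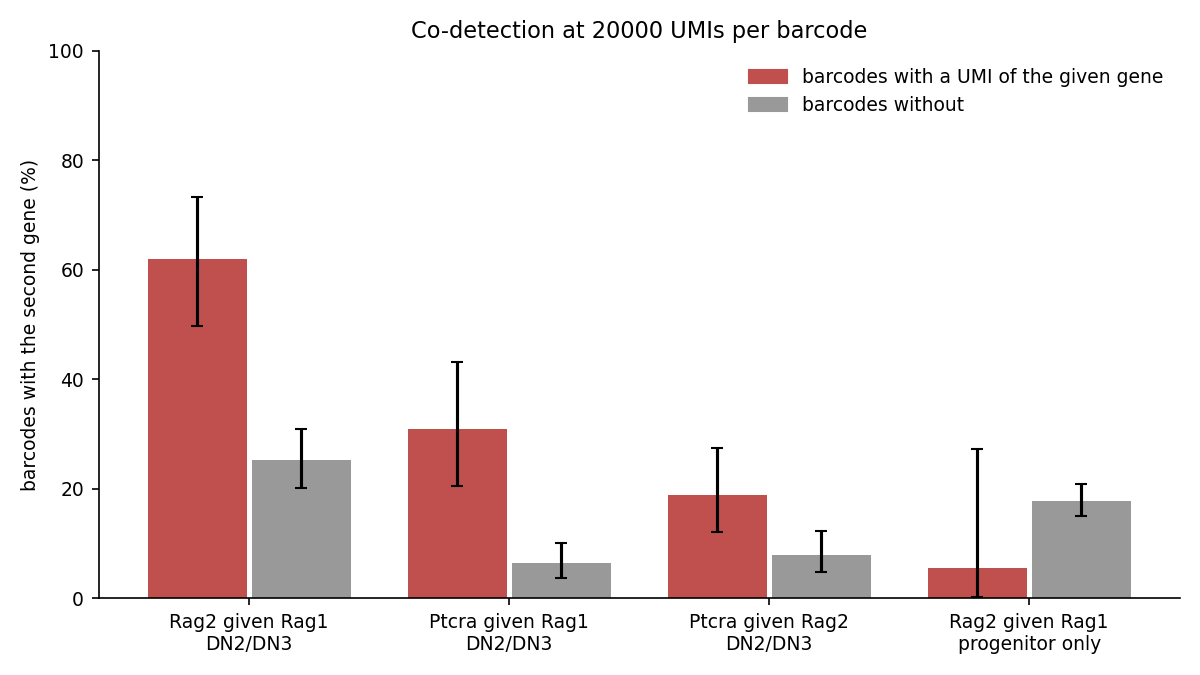
Share of barcodes (percent) with a UMI of the second gene among barcodes with (red) and without (grey) a UMI of the given gene, after thinning each barcode to 20000 UMIs, with exact 95% binomial intervals. In the 337 DN2/DN3 barcodes outside the alpha-beta gate Rag2 is in 62.0% with Rag1 against 25.2% without, while in the 698 progenitor only barcodes the intervals overlap.

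What else differed between barcodes with and without Rag1 was read in the DN2/DN3 gate outside the alpha-beta gate, 111 against 361 barcodes. Of 10477 genes 0.974% were at least 2-fold higher with Rag1 and 6.67% that much lower. Rag2 had 42.1 CPM with Rag1, against 14.9 CPM without, and Ptcra 33.1 against 5.82 CPM. Arpp21, a thymocyte phosphoprotein gene, had 230 CPM with Rag1, against 67.4 CPM without, a log2 ratio of 1.77 (1.63 to 1.90). Lig4, the ligase of end joining, had 17.1 against 7.72 CPM (log2 ratio 1.14, interval 0.69 to 1.60), and was the 1 of 14 end joining genes that was at least 2-fold higher. Notch3 had 15.7 against 7.44 CPM. Id3, an inhibitor of E proteins, had 1.79 CPM with Rag1, against 54.4 CPM without, a log2 ratio of -4.93 (-6.06 to -3.99), and Id2, a related inhibitor, had 14.9 against 59.9 CPM. The E protein genes Tcf3 (102 against 86.9 CPM) and Tcf12 (103 against 80.6 CPM) were close. Of 19 regulator genes 4 were at least 2-fold lower and 0 higher, and of 15 pre-receptor signalling genes 4 were lower, among them Zap70 with 5.95 against 29.0 CPM, while the 1 that was higher, Cd3g, is a gate gene. Markers of other cells moved with this split. Of the tested markers 6 of 8 for NK/ILC1, 6 of 7 for gamma-delta T and 4 of 6 for ILC2 were at least 2-fold lower with Rag1, with medians of -1.96, -2.98 and -3.03. Their part in the result was not tested.

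In progenitor only barcodes the 196 with Rag2 were set against the 592 without. Of 10940 genes 0.503% were at least 2-fold higher and 1.15% that much lower. Rag1 had 1.08 CPM with Rag2, against 1.51 CPM without, a log2 ratio of -0.48 (-1.82 to 0.68). Bcl11b, the factor that fixes T-lineage commitment, had 12.7 CPM with Rag2, against 4.11 CPM without, a log2 ratio of 1.62 (1.18 to 2.07). Id3 had 2.16 against 0.468 CPM (log2 ratio 2.20, interval 0.94 to 3.56). These were the 2 of 18 tested regulator genes that were at least 2-fold higher, and 0 were lower. Il7r, the interleukin 7 receptor gene, had 33.4 against 21.5 CPM, and Arpp21 43.4 against 30.4 CPM. None of 10 Notch pathway genes and none of 7 cell cycle genes was 2-fold apart. Epithelial transcripts moved with this split, as 5 of 6 tested thymic epithelium markers were at least 2-fold higher with Rag2, Krt8 with 9.03 against 0.260 CPM. With barcodes of at least 2 Krt8 and Krt18 UMIs left out, 185 with Rag2 and 555 without, Bcl11b had 12.3 against 4.17 CPM, a log2 ratio of 1.56, whereas Id3 had 5 against 9 UMIs and a log2 ratio of 0.53 (-1.40 to 2.26).

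The suffixes differed within the DN2/DN3 only group, 78 barcodes of suffix 2 against 173 of suffix 1. Ptcra had 6.38 CPM in suffix 2, against 28.8 CPM in suffix 1, a log2 ratio of -2.17 (-2.99 to -1.45). Rag2 had 18.8 against 30.1 CPM (log2 ratio -0.68, interval -1.17 to -0.22), and Rag1 19.1 against 26.4 CPM (-0.46, -0.95 to 0.01). With 1 UMI per gate gene the log2 ratio was -2.03 for Ptcra but -0.05 for Rag2 and -0.07 for Rag1. Dntt had 8 UMIs in suffix 2 and 0 in suffix 1, a log2 ratio of at least 2.44 with suffix 1 set at 3 UMIs in all. Dntt, with 8 UMIs in 3 barcodes, was under the 20 UMIs required of a tested gene. Of the other 3 genes Ptcra was at least 2-fold lower in suffix 2 and 0 were higher, against 2.19% of 9608 genes lower and 3.84% higher. There were 0.333 Ptcra UMIs per Rag1 UMI in suffix 2 (0.180 to 0.587), against 1.09 in suffix 1 (0.864 to 1.38). Of 9 tested Notch pathway genes 2 were at least 2-fold lower in suffix 2 and 0 higher. These were the Notch targets Dtx1, with 10.5 CPM in suffix 2 against 52.6 CPM in suffix 1, and Nrarp, with 15.01 against 40.05 CPM, while Notch1 had 132 against 131 CPM and Hes1 118 against 119 CPM. Of 19 regulator genes 3 were higher and 0 lower, namely Foxo1 (2.32), Id3 (1.65) and Ets1 (1.45), and of 15 pre-receptor signalling genes 2 were higher and 0 lower. Of 5 tested NK/ILC1 markers 4 were at least 2-fold lower in suffix 2, and their part in these values was not tested. In progenitor only barcodes Rag2 had 10.7 CPM in suffix 2, against 7.72 CPM in suffix 1, a log2 ratio of 0.47 (0.05 to 0.91). Ptcra there had 0.896 against 0.785 CPM. Over the whole DN2/DN3 gate Rag1 had 37.5 CPM in suffix 2, against 20.8 CPM in suffix 1, but with alpha-beta barcodes left out 13.5 against 20.8 CPM, so the alpha-beta barcodes set that direction. Suffix and stage cannot be linked from the labels, and any effect of the library cannot be told apart from one of the stage.

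The genes that work with the recombinase were read from 6 lists. Beside the list counts stand the shares of all tested genes at least 2-fold higher and lower. These were 6.3% and 6.62% in DN2/DN3 over progenitor barcodes and 9.59% and 11% in alpha-beta over DN2/DN3 barcodes. In gamma-delta T over DN2/DN3 barcodes they were 6.99% and 6.5%. Of 14 end joining genes, 2 were at least 2-fold higher in DN2/DN3 than in progenitor barcodes and 0 lower, with a list median of 0.21 on the log2 scale beside -0.01 over all genes. Lig4 had 15.2 CPM in DN2/DN3, against 1.84 CPM in progenitor barcodes, a log2 ratio of 3.05 (2.58 to 3.54). Polm, a polymerase that fills joined ends, had 4.21 against 0.787 CPM. The abundant chromatin proteins Hmgb1 and Hmgb2, which help the recombinase bend DNA, had 2525 against 2151 CPM and 2136 against 1562 CPM. Cib1 and Xrcc6, the other abundant list members, had 110.1 against 92.96 CPM and 91.0 against 136 CPM. In alpha-beta against DN2/DN3 barcodes 5 end joining genes were higher and 1 lower, with a median of 0.69. Lig4 had 52.0 against 10.8 CPM, Dclre1c, which encodes the hairpin opener Artemis, 23.1 against 5.93 CPM, Xrcc4 31.2 against 8.89 CPM and Xrcc6 268 against 84.3 CPM. The lower one, Poll, had 1 UMI in alpha-beta barcodes. Polm, with 7 UMIs, had an interval that includes 0 (-0.09 to 2.44). In gamma-delta T against DN2/DN3 barcodes 0 were higher and 0 lower.

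Of 15 genes for partners and signals of the pre-receptor, 10 were higher and 1 lower in DN2/DN3 than in progenitor barcodes, with a median of 3.34. Cd3g and Cd3d are used by gates. Cd3e had 136 CPM in DN2/DN3, against 0.674 CPM in progenitor barcodes, and Themis, a thymocyte signalling adaptor, 35.5 against 1.31 CPM. The kinase gene Lck had 244 against 150 CPM, and Ptprc and Rhoh 162 against 144 CPM and 222 against 108 CPM. Syk was the 1 that was lower, with 16.4 against 37.3 CPM. In alpha-beta against DN2/DN3 barcodes 11 were higher and 1 lower, with a median of 1.65, and in gamma-delta T against DN2/DN3 barcodes 7 were higher and 1 lower.

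Of 19 regulator genes, 9 were higher and 1 lower in DN2/DN3 than in progenitor barcodes, with a median of 0.52. The lower one, Spi1, is a gate gene. Lef1 had 76.0 CPM in DN2/DN3, against 0.337 CPM in progenitor barcodes, and Bcl11b 213 against 6.48 CPM. The E protein gene Tcf12 had 106 against 47.3 CPM, whereas Tcf3 had 90.2 against 92.5 CPM and Runx1 178 against 196 CPM. Tcf7 had 350 against 160 CPM, Id2 51.0 against 14.8 CPM and the gate gene Myb 295 against 260 CPM. In alpha-beta against DN2/DN3 barcodes 8 were higher and 3 lower. Satb1, a chromatin organiser, had 1026 CPM in alpha-beta, against 69.5 CPM in DN2/DN3 barcodes, a log2 ratio of 3.88 (3.75 to 4.01), and Runx3 had 27.7 against 103 CPM. In gamma-delta T barcodes 7 were higher and 2 lower than in DN2/DN3 barcodes, and Id3 had 240 CPM in gamma-delta T, against 17.1 CPM in DN2/DN3 barcodes.

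Notch signalling is known to drive Ptcra in immature thymocytes. Of 10 tested Notch pathway genes 1 was higher and 2 lower in DN2/DN3 than in progenitor barcodes, with a median of -0.22. Dtx1 had 33.5 against 14.1 CPM, Notch1 112 against 142 CPM, Hes1 106 against 106 CPM, Rbpj 35.8 against 40.7 CPM and Nrarp 26.3 against 35.7 CPM. In alpha-beta against DN2/DN3 barcodes 0 were higher and 3 lower. The targets Hes1 and Nrarp had 16.2 CPM in alpha-beta, against 115 CPM in DN2/DN3 barcodes, and 3.46 against 36.0 CPM, while Notch1 had 105 against 118 CPM. The alpha-beta values rest on 14 Hes1 and 3 Nrarp UMIs. Ptcra had 122 against 14.7 CPM. The alpha-beta barcodes were all of suffix 2, while these DN2/DN3 barcodes were of both suffixes. In DN2/DN3 only barcodes Nrarp itself had 15.01 CPM in suffix 2 against 40.05 CPM in suffix 1, while Hes1 had 118 against 119 CPM. Any link between the Notch targets and Ptcra was not tested. In gamma-delta T against DN2/DN3 barcodes 0 were higher and 3 lower.

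Of 13 tested stage genes 7 were higher and 2 lower in DN2/DN3 than in progenitor barcodes, with the alpha-beta gate gene Cd8b1 among the 7. Il2ra, a marker of DN2 and DN3, had 127 CPM in DN2/DN3, against 61.5 CPM in progenitor barcodes, and Kit 33.8 against 83.1 CPM. Il7r had 85.3 against 24.8 CPM and Cd24a 129 against 87.7 CPM. In alpha-beta against DN2/DN3 barcodes 7 of 12 were higher and 3 lower. Cd8b1, 1 of the 7, defines the alpha-beta gate, so its call was fixed by the gate. Il2ra had 13.9 against 135 CPM. Of 7 genes listed for recombinase turnover or the cell cycle, 0 were 2-fold apart in either direction between DN2/DN3 and progenitor barcodes. Over all genes 6.3% were that much higher and 6.62% lower, so 0 of 7 is not set apart from all genes. Mki67 had 221 against 149 CPM, Top2a 381 against 275 CPM, Ccna2 118 against 71.6 CPM and Ccnd3 151 against 88.8 CPM. In alpha-beta barcodes Cdkn1b, a cell cycle inhibitor gene, had 173 CPM, against 35.3 CPM in DN2/DN3 barcodes, and Ccnd3 523 against 133 CPM, the 2 of 7 that were higher.

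**Figure D4:**
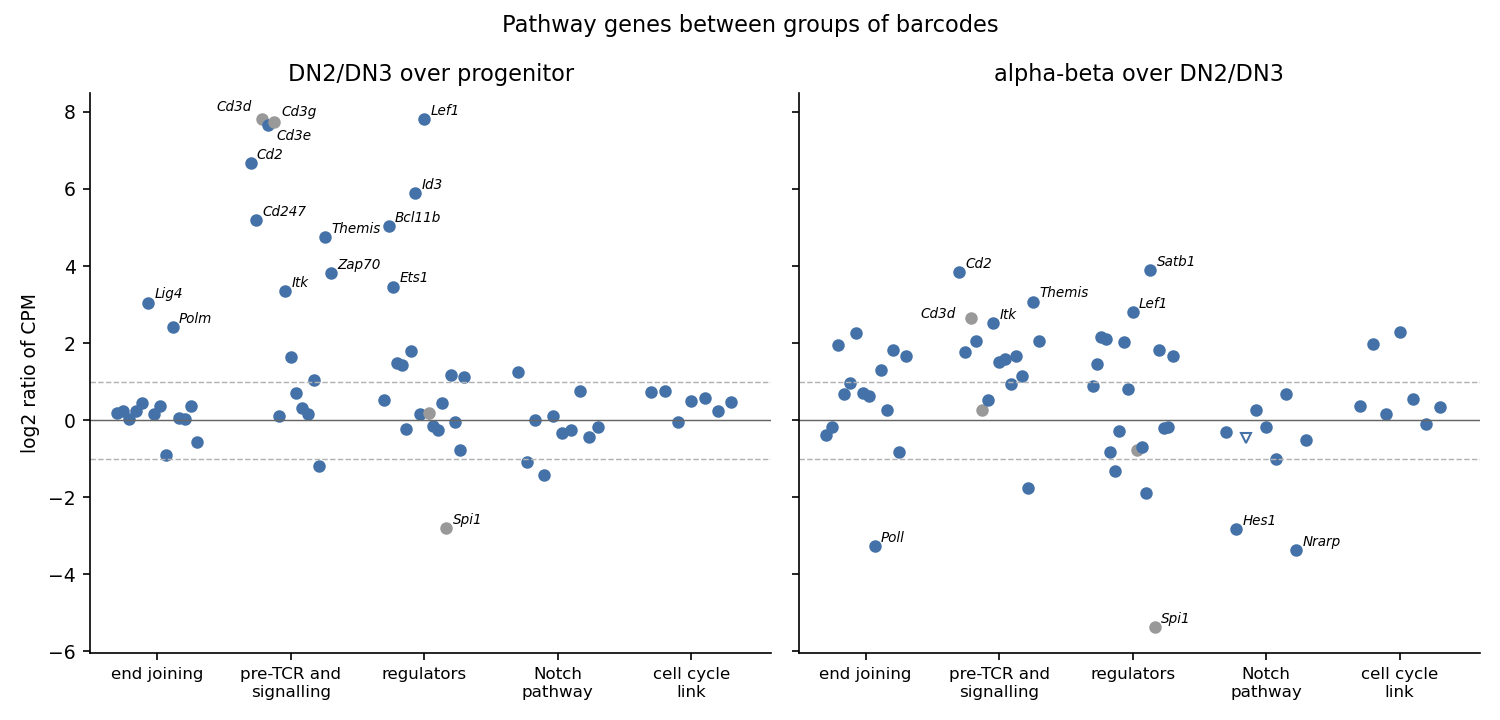
Log2 ratio of CPM for each tested gene of 5 lists, in DN2/DN3 over progenitor barcodes (left) and alpha-beta over DN2/DN3 barcodes (right); grey points are gate genes, the open triangle is an upper bound from 0 UMIs, and dashed lines mark 2-fold. End joining genes lie near 0 on the left except Lig4 (3.05) and Polm (2.42), and Hes1 and Nrarp of the Notch pathway lie below the lower line on the right.

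The genes whose levels were most alike were found over 12 units, the groups that do not overlap split by suffix, among 10188 genes with at least 200 UMIs. The units share libraries and differ in depth, and the alpha-beta unit has by far the highest levels, so the Pearson correlations of log2(CPM + 1) are a description. For Rag1 they were Dgke (0.98), A930003A15Rik, Prps2, Desi1 and Slamf6 (0.96). For Rag2 they were Pam16 (0.98), Arpp21 (0.97), Setd4, Aqp11 and Actn1. For Dntt they were Gtf2a2, Cd8a, Gng3, Rmnd5a and Brpf1 (0.95 to 0.97), and for Ptcra Rag1 (0.95), Desi1, Eaf1, Ubqln1 and Tubb3. Arpp21 had 34.0, 91.8, 160 and 727 CPM from progenitor only to alpha-beta barcodes, and Slamf6 5.18, 7.30, 16.5 and 109 CPM. Among the 4 genes the correlation was 0.95 for Rag1 with Ptcra, 0.88 for Rag1 with Rag2, 0.79 for Rag1 with Dntt, 0.77 for Rag2 with Ptcra, 0.75 for Dntt with Ptcra and 0.49 for Rag2 with Dntt.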

How the data were processed

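The deposited table gives raw UMI counts for each gene in each barcode. The submitters' processing notes name Cell Ranger 3.0.2, STAR and the build GRCm38. How cells were called is not given in the sources used here. Of 6057 barcodes, 542 failed a minimum of 500 genes or a mitochondrial limit of 10% and were dropped, as were 103 doublets called by Scrublet per suffix in scanpy 1.11.5 (10 of suffix 1, so doublets may remain there). The rest held 98990160 UMIs.

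Gates required at least 2 raw UMIs of each gate gene. UMIs were summed per group and scaled to CPM, with exact Poisson intervals for levels, conditional exact intervals for ratios and Clopper-Pearson intervals for shares. Summing gives deep barcodes more weight. A gene entered a comparison with at least 20 UMIs over both groups, and a count of 0 was set at 3 counts for a bound. Co-detection used barcodes thinned to 20000 UMIs, except in the alpha-beta gate, where it was read without thinning. Levels were also read at 6974, the 10th percentile of depth, and at 2500. With 1 library per stage no p-value was computed. The functions were tested on simulated data.

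The genes, gates and lists were chosen with earlier results of these data known. Named genes were the 4 genes, the gate genes, the 4 most abundant members of each list and the 5 genes most alike to each. Further list genes, and markers, were chosen after their values were seen. Python 3.11.15, numpy 2.4.6, scipy 1.17.1 and matplotlib 3.10.9 were used. Alternatives covered the gate minimum, filters, doublets, thinning, scaling, overlap, suffix and cytotoxic or Cd8b1 barcodes.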

Additional observations from a re-analysis of the deposited data

Results flagged for a closer look

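The 2392 kept barcodes that passed no gate, with a median of 10909.5 UMIs, were used in no comparison, and 3 of the 4 genes had more UMIs there than the 3 counts that set the limit. Rag1 had 0.634 CPM (20 UMIs in 18 barcodes), Rag2 3.61 CPM (114 UMIs in 93 barcodes) and Ptcra 1.998 CPM (63 UMIs in 54 barcodes). Dntt had 3 UMIs, at the limit. There were 5.70 Rag2 UMIs per Rag1 UMI, inside the interval of progenitor only barcodes.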

How the results depend on the processing

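The log2 ratios of DN2/DN3 over progenitor barcodes stayed above 0 in every alternative run. Leaving out bounds, they lay between 3.31 and 7.20 for Rag1, 0.69 and 2.81 for Rag2, 3.63 and 7.94 for Dntt and 3.53 and 5.18 for Ptcra. Some lay outside the main intervals or were given only as a bound. These were Rag2 0.69 and Ptcra 4.14 with at least 1 UMI per gate gene and Rag1 5.88 as a mean over barcodes. Rag2 was 0.94 and Dntt at least 3.37 with barcodes thinned first. With shared barcodes kept in both gates Rag1 was 3.31, Rag2 1.02 and Ptcra 3.53. With barcodes of 2 or more Nkg7 UMIs left out, which left 44 progenitor barcodes, the log2 ratios were Rag1 7.20, Rag2 2.81, Dntt at least 3.92 and Ptcra at least 4.54. Rag1 and Rag2 were 3.82 and 1.82 in suffix 1 alone and 5.33 and 0.92 in suffix 2 alone, and Rag1 and Dntt 3.97 and 3.63 without Cd8b1 barcodes. In gamma-delta T over DN2/DN3 barcodes the direction turned with 1 UMI per gate gene for Rag2 (0.20) and Ptcra (0.20), and in suffix 1 alone for Rag1 (1.10), Rag2 (0.36) and Ptcra (0.90). The causes were not tested. Of the other ratios over DN2/DN3, 117 stayed within their intervals or, where the main ratio was a bound, stayed a bound. Another 38 kept their direction but moved in size or changed between a value and a bound. Of 72 list counts all but 1 stayed within 1.5 times, the exception being Notch genes higher in DN2/DN3, 2 with at least 1 UMI over both gates. Leaving out Cd8b1, epithelial or NK/ILC1 barcodes or the 5 richest barcodes, thinning to 2500 or 20000 UMIs and the alternatives for the Rag2 per Rag1 ratio were chosen after seeing the data. Few UMIs limit Dntt outside the alpha-beta gate and Rag1 in progenitors, although those barcodes were deep, and the shallow alpha-beta barcodes limit co-detection. No paired analysis was possible because each stage has 1 library and no label ties a suffix to a stage.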
